A study of Homo sapiens with 2 samples.

Results

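The genes of the proteasome and of the E2 ubiquitin-conjugating enzymes were examined for methylated adenosines in poly(A) RNA of HEK293T, a widely used transformed line of human embryonic kidney origin. The members were chosen by symbol: PSM followed by a letter from A to G and a digit, or UBE2 followed by a letter, without names that end in P and a number. The rule used no measured value. It found 62 of the 11406 genes named in either library, 30 with proteasome symbols and 32 with E2 symbols. N6-methyladenosine (m6A) was read at single bases with GLORI, in which glyoxal and nitrite turn unmethylated adenosine into inosine, sequenced as G, while m6A is still read as A. The level of a site is the share of A among its A and G reads. The series holds 1 group: wild-type HEK293T cells labelled day 0, given no treatment other than the GLORI reaction on their poly(A) RNA, as 2 replicates. Whether the replicates are separate cultures is not stated, so the spread between them may be technical. There is no untreated, demethylated or methyltransferase-deficient control among the samples used here.

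The proteasome degrades proteins tagged with ubiquitin. Its 20S core is a barrel of alpha rings, which gate the entrance, and beta rings, which hold the proteolytic sites. The 19S cap carries a ring of ATPases that unfold substrates and a set of other subunits that bind and remove ubiquitin. E2 enzymes take activated ubiquitin, or a ubiquitin-like protein such as NEDD8, from an E1 enzyme and pass it to a substrate with the help of an E3 ligase. In messenger RNA, m6A is written mostly within DRACH motifs, where D is A, G or T, R is A or G, and H is A, C or T, and it gathers around stop codons and in the 3′ untranslated region. The first transcribed adenosine of many messengers carries a related mark, m6Am, next to the cap.

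Replicate 1 listed 72449 sites and replicate 2 listed 81554, with 5221660 and 6306522 reads of A or G over the listed sites. Every listed site had at least 15 reads, 5 A reads and a level of 10%, so a gene or adenosine without an entry may lack methylation or reads. Levels below refer to listed sites only. A shared site is listed in both libraries, and its level is the mean of the 2 levels. The level of a gene is the mean over its shared sites, given with the counting standard error. The libraries were counted as 1 sample, so no SD is given. Intervals and errors cover the counting of reads only, and nothing shows that each read stands for its own molecule.

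Most annotated genes of both classes were listed. RefSeq annotates 49 protein-coding genes with a proteasome symbol of this form, of which 30 were listed in a library and 24 had a shared site. It annotates 35 with an E2 symbol, of which 28 were listed and 25 had a shared site. Of all 20052 annotated protein-coding genes, 9583 (47.8%) were listed and 8302 (41.4%) had a shared site. With the symbols that are not protein-coding, 53 members carried 177 shared sites: 24 proteasome genes had 59, and 29 E2 genes had 118.

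Sites were sparse in both classes, and levels were low in the proteasome class. The median was 2 shared sites in proteasome genes, 2 in E2 genes and 4 in the other 9468 named genes. At least 5 shared sites were found in 3 proteasome genes (12.5%), in 8 E2 genes (27.6%) and in 42.3% of the other genes. A single shared site was found in 10 proteasome genes (41.7%), in 11 E2 genes (37.9%) and in 23.4% of the other genes. The median level of a gene was 25.03% in the proteasome class (quartiles 20.3 and 37.7), 42.7% in the E2 class (30.1 and 62.6) and 46.6% in the other genes (33.4 and 58.8). Strongly methylated sites, at 80% or more, were 5 of 59 in proteasome genes (8.47%), 19 of 118 in E2 genes (16.1%) and 20.1% of those in the other genes. Sites under 20% were 22.0% in proteasome genes, 23.7% in E2 genes and 15.1% in the other genes. Genes are not replicates, and no test was made over a class.

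**Figure D1:**
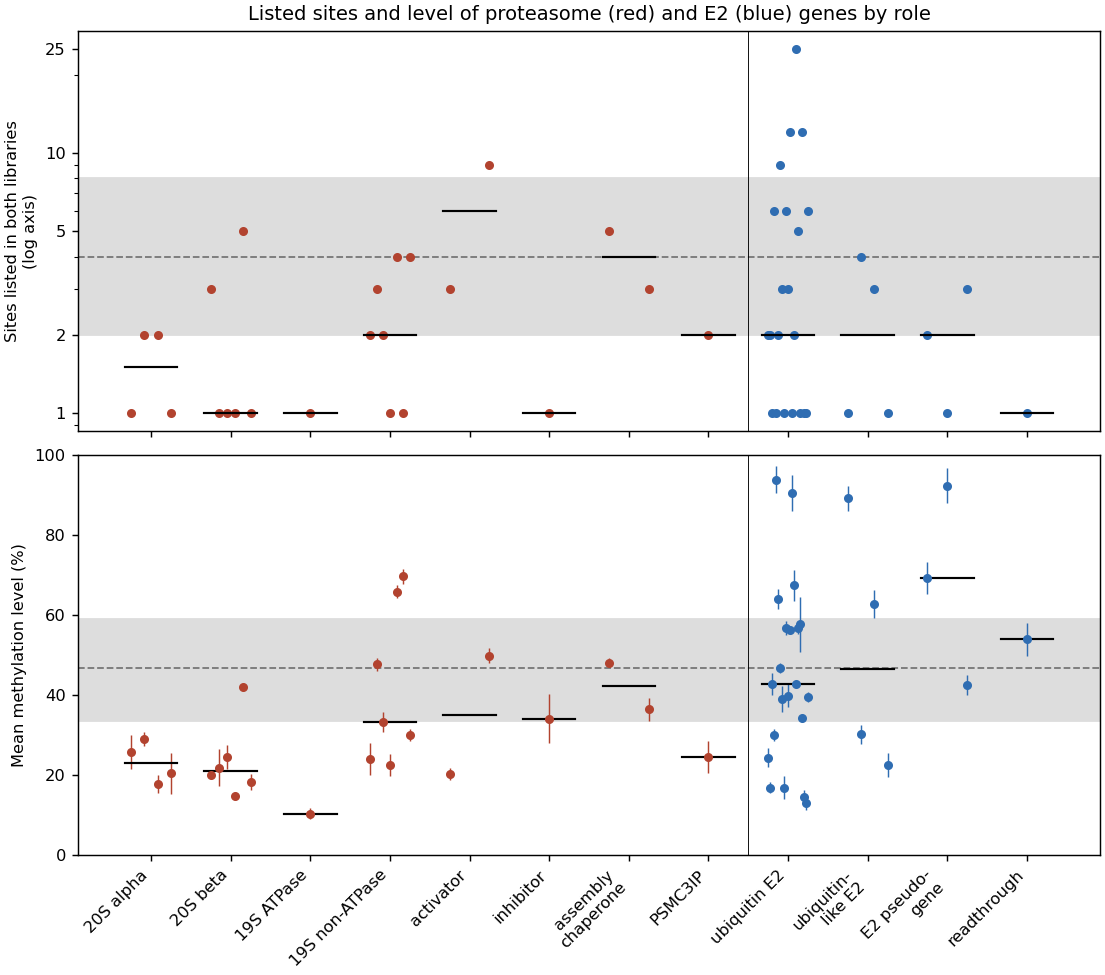
Shared sites of each gene (top, log scale) and its mean methylation level in percent (bottom, with counting SE), by the role of the gene. Each point is a gene, red for proteasome and blue for E2 symbols; black bars are medians of a role, the dashed line is the median of all other named genes (4 sites, 46.6%) and the grey band their quartiles. Both 20S roles lie low, with median levels of 23.0% for alpha and 20.8% for beta subunits, while ubiquitin E2 genes spread from 13.0% to 93.8%.

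Gene coverage differed between the classes. The authors' deposited gene coverage, whose definition the sources used here do not give, had a median of 107 in proteasome genes, 62.4 in E2 genes and 31.7 in the other genes. A deeply covered gene can show weakly methylated sites that a thinly covered gene cannot. Each member was therefore set beside the 100 genes outside the class nearest to it in coverage. In number of shared sites, 17 of 24 proteasome genes lay below the median of these neighbours (70.8%), 5 lay above and 2 were equal. Among E2 genes 19 of 29 lay below (65.5%), 5 above and 5 were equal. Of the other genes, treated in the same way, 42.9% lay below and 45.2% above. The share above depended on the read minimum: at 50 reads it was 33.3% of 18 proteasome genes, against 20.8% of all 24, and 38.1% of 21 E2 genes, against 17.2% of all 29. For E2 genes it was 29.2% at 30 reads and 29.2% with a level of at least 20%. In level, 17 proteasome genes lay below their neighbours (70.8%) and 7 above, with a median difference of -10.2 percentage points. Of the E2 genes 12 lay below and 17 above (58.6%), with a median difference of 3.89 points. In the other genes 50.2% lay below and 49.8% above. Over all sites of a single library, 50% of E2 genes lay above in level in replicate 1 and 46.9% in replicate 2. Their majority above was therefore kept in neither library alone. Of protein-coding E2 genes 52% lay above. Transcript length was not matched.

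**Figure D2:**
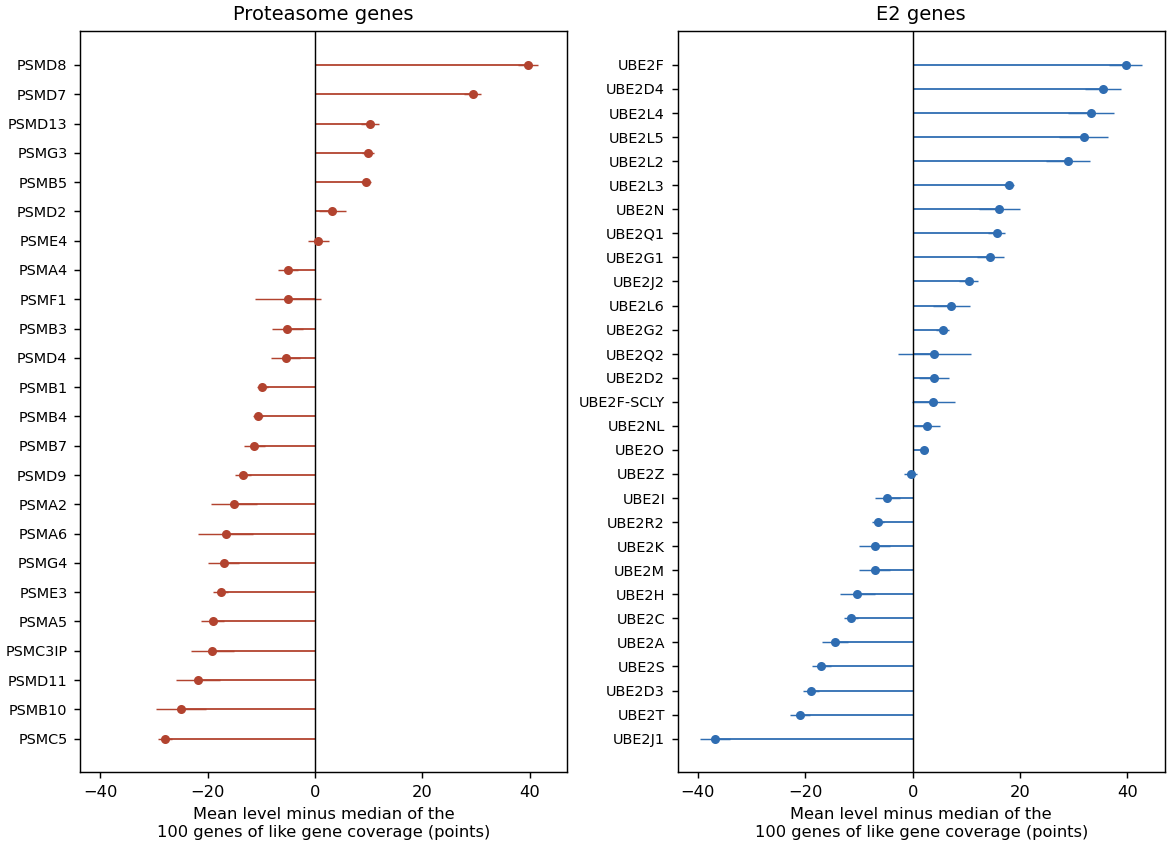
Mean level of each member minus the median level of the 100 genes nearest to it in the authors' gene coverage, in percentage points. Proteasome genes are on the left in red and E2 genes on the right in blue, with counting SE of the member. Proteasome genes lie mostly below 0 and E2 genes on both sides.

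Within the 2349 other genes of highest coverage and the members above the same bound of 62.9, 17 proteasome genes had a median level of 24.4% and 14 E2 genes 36.8%, against 36.0% in those other genes. Their median number of shared sites was 2 for proteasome genes and 2.5 for E2 genes, against 3. Between 31.8 and 62.9, 4 proteasome genes had 24.8% and 3 E2 genes 56.7%, against 44.5% in other genes. Between 18.5 and 31.8, 3 proteasome genes had 36.3% and 8 E2 genes 55.7%, against 51.1%. Below 18.5 lay no proteasome gene, and 4 E2 genes had 91.3%, against 56.8%. In these ranges, in this order, E2 genes had a median of 6, 1.5 and 1 shared sites, against 5, 5 and 2.

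In the 20S core, listed methylation was weak in nearly every subunit. Of 8 annotated alpha subunit genes, PSMA2, PSMA4, PSMA5 and PSMA6 had shared sites, PSMA3 had sites but none shared, and PSMA1, PSMA7 and PSMA8 were not listed. PSMA4 had sites at 40.7% and 31.3%, and at 23.9% and 19.9%, in replicates 1 and 2, 81 bases from end to end. Its level of 28.9% ± 1.8 was the highest of the alpha genes. PSMA2 had 1 site (29.5% in replicate 1 and 21.7% in replicate 2), and PSMA6 had 1 (20% and 20.6%). PSMA5 had 17.7% ± 2.2 over 2 sites, one of them 11 bases from the start of the gene.

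Among 11 annotated beta subunit genes, 6 had shared sites and the other 5, PSMB2, PSMB6, PSMB8, PSMB9 and PSMB11, were not listed. PSMB5, the subunit with the chymotrypsin-like activity, differed from the other beta genes in having 5 shared sites and a level of 42.01% ± 0.99. On the minus strand of chromosome 14, base 23034822 read 59.6% and 57.5%, and base 23026032 read 74.6% and 71.9%, with 315 and 459 reads. The other 3 sites of PSMB5 averaged 15.1%, 16.8% and 46.3%, so levels differed widely between sites of the same gene. PSMB7, the subunit with the trypsin-like activity, had 1 site at 15.6% and 20.9%. PSMB10, which takes the place of PSMB7 in the immunoproteasome, had 1 site at 21.1% and 22.5%. PSMB8 and PSMB9, the other immunoproteasome subunits, and PSMB6, the caspase-like one, had none.

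The 3 most deeply read shared sites of all members lay in PSMB4, PSMB1 and PSME3 and had low levels. The site next in depth, base 23026032 in PSMB5 above, was high, with 774 reads in both libraries together against 783 for that of PSME3. Position 151399617 of chromosome 1 (plus strand) in PSMB4 had 17.0% of 712 reads and 12.3% of 796 reads (95% Wilson interval of the summed reads 12.8 to 16.4). Position 170535224 of chromosome 6 (minus strand) in PSMB1 had 25.6% of 441 reads and 21.6% of 515 reads (20.9 to 26.2). Position 42843132 of chromosome 17 (plus strand) in PSME3 had 14.96% of 361 reads and 14.93% of 422 reads (12.6 to 17.6). PSMB1 averaged 19.9% ± 1.0 over 3 sites, from 16.3% to 23.6%, and PSMB3 had 1 site at 23.2% and 25.6%.

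The ATPase ring of the 19S cap was almost without listed sites. PSMC5 held the only shared site among 6 annotated ATPase genes, at position 63830879 of chromosome 17 (plus strand). It had 10.0% of 240 reads and 10.5% of 323 reads (interval 8.05 to 13.1), next to the limit of the lists. It was the lowest proteasome site with at least 50 reads in both libraries. PSMC1 was listed in replicate 1 only, with 1 site at 16.7% of 30 reads, and PSMC2, PSMC3, PSMC4 and PSMC6 were not listed.

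The other genes of the 19S cap, taken by the symbol PSMD and so including the assembly factor PSMD9, were more varied. Their median level was 33.2%, with shared sites in 7 of 14 annotated genes. PSMD7, the partner of the deubiquitinase PSMD14 in the lid, had 65.7% ± 1.6 over 4 sites, the highest level of a proteasome gene with at least 2 sites. Its sites read 79.9% and 82.1%, 69.2% and 55.6%, 29.4% and 28.5%, and 88.6% and 92.3% in the direction of the gene, all within the last 930 bases. The middle pair of these, at 62.4% and 28.9% on average, lie 17 bases apart. PSMD8 had its shared site at 72.5% of 295 reads and 66.6% of 290 reads, 355 bases from the end of the gene. That was 39.6 points above the neighbours of PSMD8 in coverage. PSMD13 had 2 sites near its end, at 56.4% and 45.2% and at 75% and 67.1%, beside 1 at its start at 14.5% and 27.3%. PSMD2, a scaffold that binds ubiquitin shuttle factors, had 20.1% and 46.3% at its 2 sites, and PSMD4, a ubiquitin receptor, had 22.4% ± 2.7 at 1 site. PSMD11 was low at both of its sites (23.9% ± 4.1).

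PSMD9, which in spite of its name assists assembly of the cap, had 4 sites within 197 bases whose levels were 12.9%, 27.0%, 28.5% and 50.9% from the most distant to the nearest to the gene's end. PSMD1, PSMD6 and PSMD12 were listed in replicate 2 only, with 3 sites, 2 sites and 3 sites. Their highest levels were 33.3%, 14.3% and 43.5%. PSMD3 was listed in both libraries without a shared site, and PSMD5, PSMD10 and PSMD14 were not listed. PSMC3IP, which matches the symbol rule but encodes a recombination protein and not a proteasome subunit, had 2 shared sites at 24.4% ± 4.0.

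Of the activators, PSME4 carried many sites and PSME3 few. PSME4 encodes the large activator PA200 and had 9 shared sites at 49.7% ± 1.9, the most of any proteasome gene. Its single sites spread from 15.3% to 91.2%, and 7 of the 9 lay within the last 1419 bases of the gene. PSME3, the nuclear activator PA28 gamma, had 3 sites at 20.2% ± 1.5. PSME1 and PSME2, which form the interferon-induced PA28 activator, were not listed. The inhibitor gene PSMF1 had 1 site (37.1% and 30.8%, 35 and 26 reads).

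Assembly chaperones PSMG3 and PSMG4 had shared sites, and PSMG1 and PSMG2 were not listed. In PSMG3 5 sites within 118 bases alternated between low and high levels: 28.3%, 75.5%, 21.9%, 82.8% and 31.4%. The order was the same in both libraries, with 26.8% and 29.9%, 73.4% and 77.5%, 22.4% and 21.4%, 86.1% and 79.4%, and 31.1% and 31.8%. The fourth, position 1567564 of chromosome 7 (minus strand), was the highest proteasome site with at least 50 reads in both libraries (interval 76.9 to 86.6). PSMG4 had sites at 25.6%, 23.0% and 60.3%, the last with 18 and 17 reads.

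Several members were listed at or near an annotated start. Within 50 bases of the annotated gene start lay 5 of 59 shared sites in proteasome genes (8.47%), 5 of 118 in E2 genes (4.24%) and 1.21% of those in the other genes. Counted by gene, 5 of 24 proteasome genes (20.8%), 4 of 29 E2 genes (13.8%) and 6.58% of the other genes had such a site. The higher coverage of both classes moves with these shares, and its part in them was not tested. The sequences below are shown because they place these sites against the start and the motif. They are RefSeq's for GRCh38.p14, 5′ to 3′ along the transcript's strand, with each adenosine listed in either library in capitals. The regions, in the same order, are chr1:109426429-109426456 (minus strand), chr14:35292380-35292396 (plus), chr17:38752740-38752767 (plus), chr1:151399609-151399622 (plus), chr14:23034877-23034898 (minus), chr11:236972-236988 (plus), chrX:119574555-119574573 (plus), chr19:58558571-58558587 (minus) and chr19:55407775-55407791 (minus).
PSMA5: gcacgcgcAgttggtccttAgtactgcg
PSMA6: ccggaagcAgtcgctgc
PSMB3: cagcagtgAgAgcggttgcgcAgtgaag
PSMB4: cggtccggActttg
PSMB5: ttctgcccAcactAgacatggc
PSMD13: gagtgagcAtttccggc
UBE2A: ccggcgccAgAccgaccct
UBE2M: ggagccggActacggga
UBE2S: gccggctcAgtgctgcc

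UBE2A, a RAD6 family enzyme that ubiquitinates histone H2B, was listed at its first base and 2 bases further on. The first base had 30.4% of 69 reads and 31.4% of 70 reads, and the other had 13.8% of 87 reads and 21.3% of 94 reads. These were its only shared sites. In PSMA5 the first base was listed in replicate 2 only, at 43.8% of 16 reads, and the base 11 further on had 17.6% and 10.6%. In PSMD13 the listed base lies 4 bases after the start of the gene, and in UBE2S, an E2 of the anaphase-promoting complex, 5 bases, with 14.4% in both libraries. The listed bases shown for PSMA6 and PSMB5 are near an alternative RefSeq start, 6 bases after it in PSMA6 and 10 and 15 in PSMB5, and not near the start of the gene as annotated. They are not among the 5 proteasome sites counted above. PSMB4 and UBE2M, at 44 and 32 bases from the start, have the listed adenosine in GGACT, a DRACH motif. UBE2C, the other E2 of the anaphase-promoting complex, had sites at 6 bases before and 2 bases after its annotated start, at 13.1% and 20.9%, and at 16.6% and 16.4%. Whether a listed first base carries m6A or m6Am was not tested.

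In the RefSeq windows from 250 bases before to 50 after an annotated start, members had 24 listed sites, counting those of either library, in 16 genes. The base was an adenosine at 24 of 24, as at 1593 of 1593 sites of other genes, which places the sites and the windows on the same coordinates. DRACH was searched on the transcript's strand at the listed base. It surrounded 8 of 24 member sites (33.3%), against 23.4% of the sites of other genes, sites before the start included. Of all adenosines at bases 1 to 48, a narrower range, it surrounded 6.65%. By position, 0 of 3 member sites at the first base, 2 of 8 at bases 2 to 10 and 3 of 9 at bases 11 to 50 lay in DRACH. Upstream 3 of 4 did, all 3 in UBE2D3. In other genes the shares were 1.25%, 10.9%, 42.9% and 48.6%. AGT from the listed adenosine onwards, a motif searched after these sequences were seen, was found at 6 of 20 member sites in the first 50 bases, at 243 of 1230 sites of other genes (19.8%) and at 7.32% of all adenosines there. A motif match describes the letters and is no sign of what wrote the mark.

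**Figure D3:**
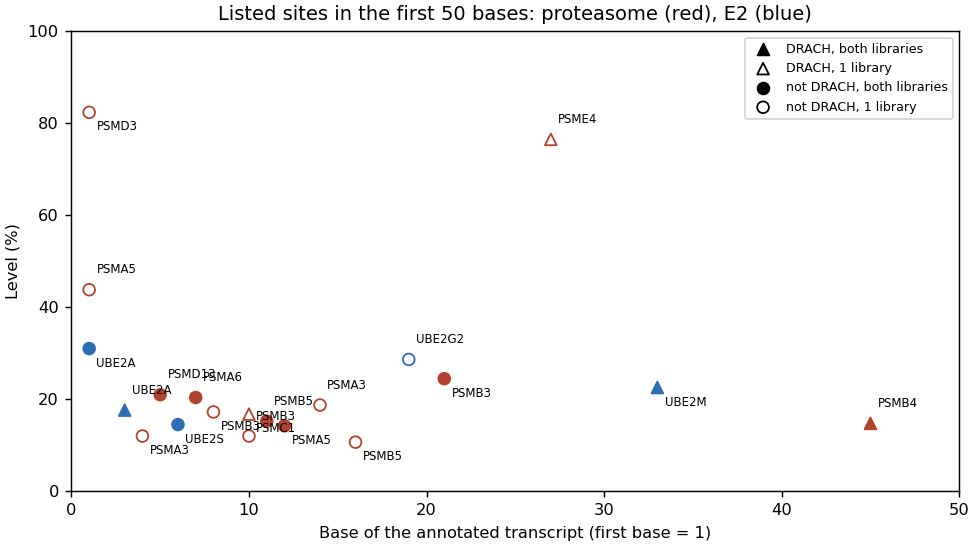
Level in percent of each listed site in the first 50 bases of the annotated transcript, proteasome in red and E2 in blue, against its base counted from 1 at the start. Filled marks are shared sites (mean of both libraries), open marks sites of a single library, triangles sites in DRACH; each site is placed by the nearest annotated start, which is an alternative one for PSMA6 and PSMB5, and UBE2C and PSMB1 are not plotted. The shared sites lie between 14.1% and 30.9%; the marks above 40% are sites of a single library with 16 or 17 reads.

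UBE2O, a large enzyme that joins E2 and E3 activities, stood apart from the other members with 25 shared sites at 42.7% ± 0.78. It ranked 189th of 9521 genes by number of shared sites and had 21 more than the median of its neighbours in coverage. Its sites spread from 12.4% to 88.0%, and 19 of the 25 lay within the last 1969 bases. Another 4 lay near the opposite end of the gene, at 21.7% to 35.4%. The highest site, at position 76391223 of chromosome 17 (minus strand), had 89.7% and 86.3%.

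UBE2L3 and UBE2R2 followed with 12 shared sites each. UBE2L3, which works with HECT and RBR ligases such as parkin, had 56.2% ± 0.94, and its 12 sites all lay within the last 2435 bases. Position 21622706 of chromosome 22 (plus strand) had 92.9% and 97.8%, and 15 bases before it position 21622691 had 20.6% and 20%. UBE2R2, which works with cullin-RING ligases, had a lower level of 34.2% ± 1.0. That level combined 6 sites under 20% with the highest well-read E2 site, position 33917407 of chromosome 9 (plus strand). This site had 96.3% in both libraries (134 and 136 reads, interval 93.3 to 98.0), while the listed sites 79 bases before it and 98 bases after it averaged 17.7% and 16.4%.

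UBE2G2 and UBE2J2, which act in degradation from the endoplasmic reticulum, carried more sites than their paralogs, and their gene coverage was also higher. In replicates 1 and 2 it was 76.9 and 86.6 in UBE2G2 against 24.7 and 27.1 in UBE2G1. In UBE2J2 it was 36.6 and 39.6, against 22.1 and 25.9 in UBE2J1. Their neighbours in coverage had a median of 6 shared sites for UBE2G2 and UBE2J2, and 5 for UBE2G1 and UBE2J1. UBE2G2 had 9 shared sites at 46.6% ± 1.2, all in the last 2803 bases, from 14.96% to 90.6%. Its paralog UBE2G1 had 2, at 51.7% and 76.2%. UBE2J2, a membrane-anchored E2, had 6 at 56.7% ± 1.8, within 372 bases. Its paralog UBE2J1 had 1, at 13.5% and 20%, a mean of 16.8% against a median of 53.6% among the neighbours of UBE2J1 in coverage. UBE2Z, which is charged by the E1 enzyme UBA6, had 6 sites within 209 bases at 39.5% ± 1.2. Position 48927231 of chromosome 17 (plus strand) in UBE2Z was the lowest well-read E2 site at 10.8% (interval 8.09 to 14.3), and position 48927076 of the same gene had 89.1% and 91.5%.

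**Figure D4:**
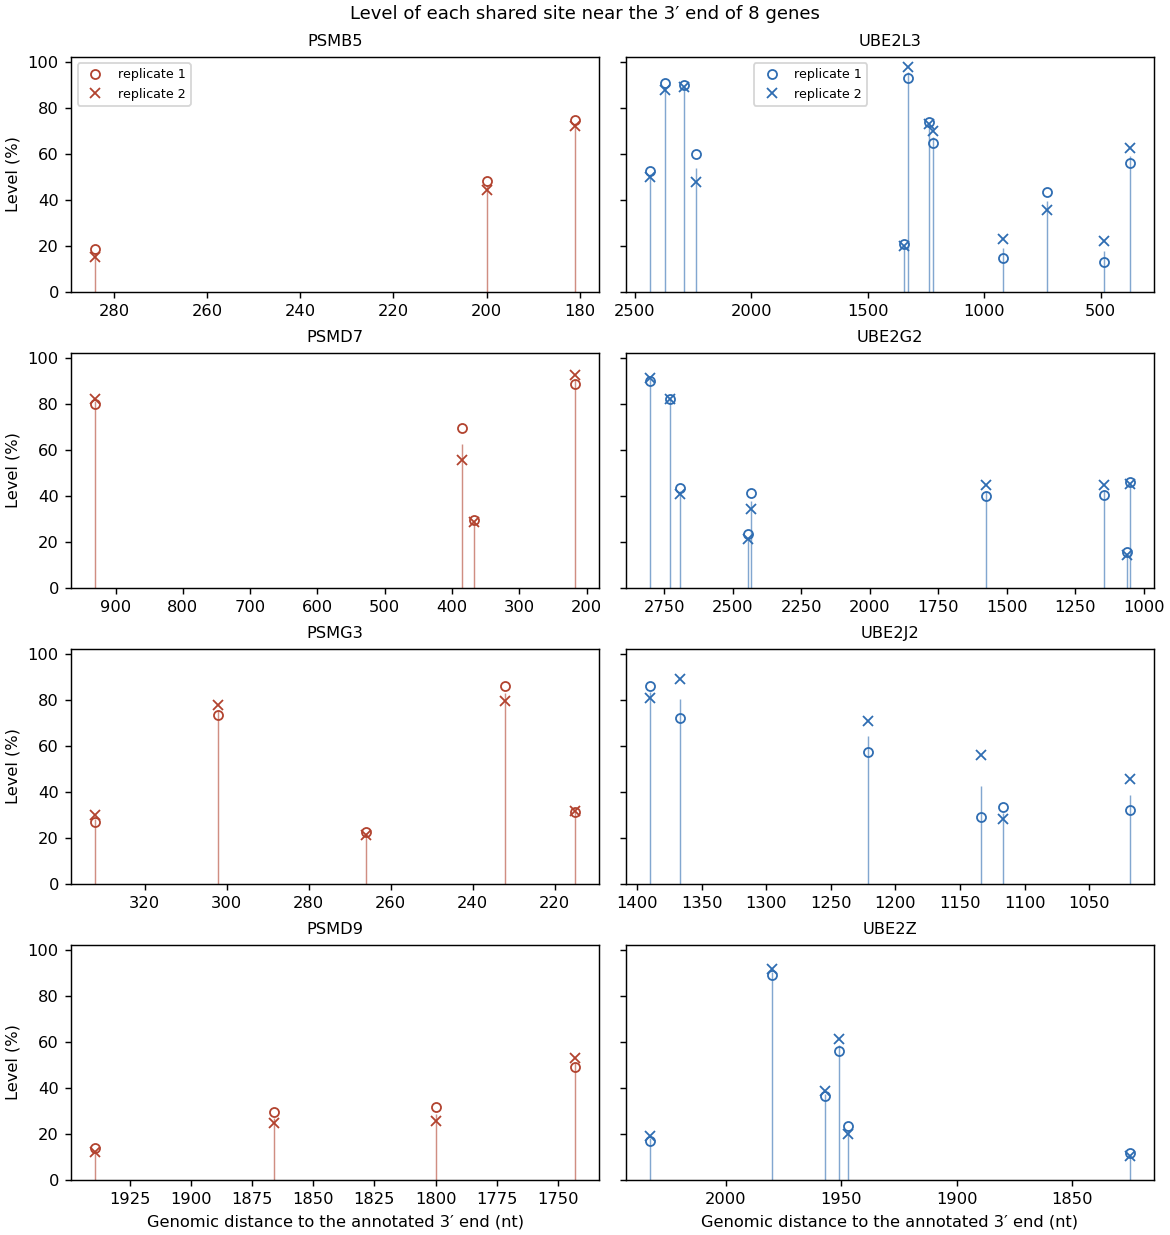
Level in percent of the shared sites near the annotated 3′ end of 8 genes, against the genomic distance to that end in nucleotides (decreasing to the right; each panel has its own range), circles for replicate 1 and crosses for replicate 2. Proteasome genes are on the left and E2 genes on the right. High and low sites alternate over short distances in PSMG3 and in most of UBE2Z, while levels rise steadily toward the end in PSMD9. The 2 libraries give similar patterns, with exceptions such as base 1255046 of UBE2J2 (29.0% and 56.1%).

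The UBE2D family, broad-range enzymes that serve many E3 ligases, varied in level. UBE2D3 had 6 shared sites at 29.98% ± 1.5, UBE2D2 had 1 at 44.4% and 40.7%, and UBE2D4 had 1 at 87.5% and 100% with 24 reads in each library. UBE2D2 had 5 listed sites and UBE2D4 had 6. Those in a single library were at 12.2% to 25% in UBE2D2 and at 20% to 100% in UBE2D4. UBE2D1 was not listed. Of the UBE2D3 sites, 4 lay far from the gene's end, and 3 of these fell before an alternative RefSeq start in a DRACH motif. UBE2Q1 had 5 sites at 56.8% ± 1.5 within 156 bases, and UBE2Q2 had 1 at 54.5% and 60.6%. UBE2N, which builds ubiquitin chains together with a catalytically inactive E2 variant, had 67.3% ± 3.8 over 2 sites. Of the variants, UBE2V2 was listed without a shared site and UBE2V1 was not listed. UBE2E1 and UBE2E3 were listed in replicate 2 only, with 1 site and 2 sites, and UBE2E2 was not listed. UBE2B, UBE2QL1, UBE2U and UBE2W were not listed either.

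UBE2T, UBE2S and UBE2C were the lowest E2 genes, with UBE2J1 (16.8% ± 2.8 at 1 site) level with UBE2C. UBE2C had 16.7% ± 1.3 over 2 sites, the lowest level of a member with at least 2 sites. UBE2S had 14.4% ± 1.8 at 1 site and UBE2T, the E2 of the Fanconi anemia pathway, 13.0% ± 1.9 at 1 site. UBE2K had 39.7% ± 2.9 over 3 sites and UBE2H 39.0% ± 3.2 over 3.

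Enzymes for ubiquitin-like proteins were listed with shared sites in 4 of 4 genes. UBE2F, an E2 for NEDD8, had 1 shared site at 88.4% and 89.8% among 5 listed. The rest, each in a single library, were at 14.3% to 43.75%. UBE2M, the other NEDD8 E2, had 1 shared site at 27.9% and 17.0% and a site at 10.6% in replicate 1 only. UBE2L6, the E2 for ISG15, had 62.6% ± 3.4 over 3 sites, of which position 57552297 of chromosome 11 (minus strand) had 96.2% of 26 reads and 100% of 23 reads. The readthrough gene UBE2F-SCLY had 1 shared site at 58.8% and 48.8%, 963 bases from its end.

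Some E2 symbols belong to retrocopies, and reads of a copy and its parent may not be told apart, so their values are uncertain. UBE2L2 had the highest level of a member with at least 2 sites (69.1% ± 4.0), with 47.5% and 90.7% at sites 64 bases apart. In UBE2L3 a pair of sites 66 bases apart had 51.3% and 89.0%. UBE2L4 and UBE2L5 had 1 site each, at 92.2% ± 4.3 and 90.4% ± 4.6. UBE2NL, a copy of UBE2N, had 74.7% and 68.4% at one site and 18.2% and 18.7% at another 14 bases on. UBE2N had 77.1% and 78.2% at a site and 25.9%, in replicate 2 only, 14 bases on. Whether these bases correspond in sequence was not tested.

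Pooled over genes, a larger share of member sites than of other sites lay toward the end of the gene. The last 10% of the annotated gene, introns included, held 32 of 59 shared sites in proteasome genes (54.2%), 80 of 118 in E2 genes (67.8%) and 42.9% of those in the other genes. A few genes gave most of the 80 E2 sites: UBE2O had 19 of them, UBE2L3 12, UBE2R2 11 and UBE2G2 9. The share was 15 of 17 in 19S non-ATPase genes and 1 of 6 in 20S alpha genes. Gene length was not matched, and positions in the spliced messenger were not used here.

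Levels of different sites in a gene differed by more than the counting of reads in most members. A chi-square test of homogeneity was run on the A and G reads of the shared sites of each gene, with Benjamini-Hochberg adjustment over the 7287 named genes with at least 2. It called 11 of 14 proteasome genes and 16 of 18 E2 genes, against 89.6% of all genes tested. For genes with exactly 2 shared sites it called 6 of 10 members, against 62.7% of all such genes. The chi-square test did not call PSMA5 (adjusted p = 0.104), PSMD11 (0.784) and PSMC3IP (0.586) of the proteasome symbols, and UBE2C (0.753) and UBE2K (0.0723) of the E2 symbols. The smallest adjusted p among proteasome genes was that of PSMG3 (2.05e-88), and among E2 genes that of UBE2R2 (1.42e-168). In replicate 1 alone 26 of 32 members were called, against 83.4% of all genes, and in replicate 2 alone 24 of 32, against 84.8%. PSMB1, UBE2H and UBE2N, for example, were called in replicate 1 and not in replicate 2.

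No difference in level between the 2 libraries was detectable at single member sites after adjustment, which does not show that the levels were equal. Fisher's exact test, two-sided, between the A and G reads of the libraries called 0 of 177 member sites and 0% of all 60462 shared sites after Benjamini-Hochberg adjustment. At an unadjusted p under 0.05 stood 9 member sites (5.08%), against 3.06% of all shared sites. A chi-square test scaled by the dispersion also called 0 member sites and 0 of all 60462 shared sites. At an unadjusted p under 0.05 it had 12 of 177 member sites. The matching share of all shared sites is not given here, so the 12 cannot be set against it. The largest shift among the 9 was in UBE2K, at position 39778570 of chromosome 4 (plus strand), with 23.8% of 21 reads in replicate 1 and 62.2% of 37 reads in replicate 2 (Fisher's exact test, unadjusted p = 0.00659, adjusted p = 1). At depths of this kind a large shift at a single site can miss the adjusted threshold. The mean chi-square of the difference, which is near 1 where only the counting of reads differs, was 1.08 over member sites and 0.933 over the sites of other genes. The median absolute difference was 4.67 points over member sites. Across the 177 sites, which share libraries and genes, Pearson's r was 0.943 and Spearman's rho 0.928.

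**Figure D5:**
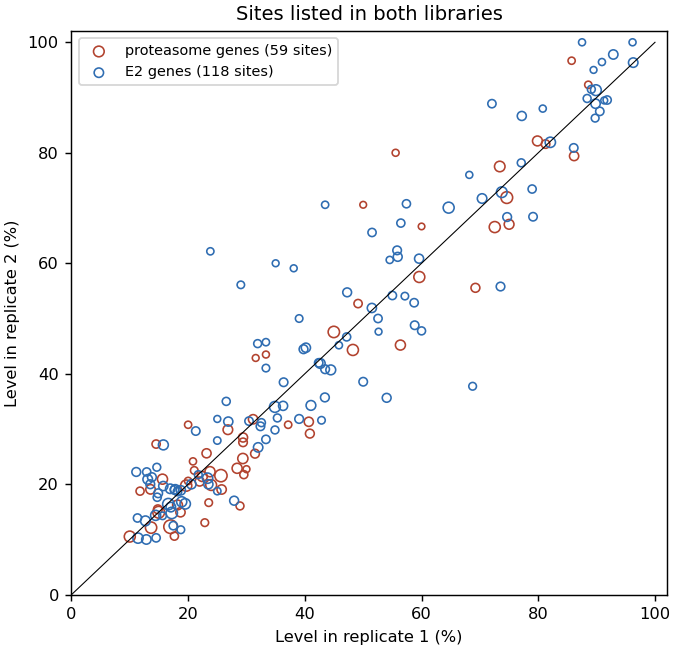
Level in percent of each of the 177 shared member sites in replicate 2 (vertical) against replicate 1 (horizontal), proteasome in red and E2 in blue, with the line of equality. Points lie along the line over the whole range from 10% to 100%; the median absolute difference is 4.67 percentage points.

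Detection differed between the libraries. Sites listed in a single library were left out of the comparison of levels above, so that comparison covers only sites that passed the minimums in both. The 59 shared proteasome sites were 85.5% of those listed in replicate 1 and 70.2% of those in replicate 2. The 118 shared E2 sites were 84.9% of those in replicate 1 and 77.1% of those in replicate 2. The other genes had 84.2% and 75.5%. Sites of a single library were weaker than shared ones in every class. The list minimums favour this by construction, since a weak site more easily misses them in a library. Their part in it was not tested. In proteasome genes the median of single-library sites was 14.9% in replicate 1 and 17.1% in replicate 2, against 26.4% for shared sites. In E2 genes it was 14.3% and 20%, against 42.2%, and in the other genes 20.8% and 26.1%, against 44.9%.

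Other genes of the pathway, taken from a list of 41, were listed in 35 cases and had 180 shared sites in 29 genes. Their median level was 40.9%, and 12 lay above and 13 below their neighbours in coverage for number of sites. For level 11 lay above and 18 below. Among ubiquitin genes, UBB had 2 shared sites at 27.7% ± 1.0, and RPS27A was not listed. NFE2L1, the transcription factor that raises proteasome subunit genes when proteasome activity falls short, had 38 sites at 49.98% ± 0.47, more than any member. DDI2, the protease that activates NFE2L1, had 19 at 49.9% ± 1.1, and NFE2L2 had 8 at 46.3% ± 1.6. Of genes that deliver substrates to or regulate the proteasome, UBQLN2 had 21 at 43.7% ± 0.75, UBE3C 11 at 24.6% ± 0.97, AKIRIN2 7 at 44.9% ± 1.3, UBQLN4 6 at 34.1% ± 1.1 and ZFAND5 5 at 32.6% ± 1.3. Of E2 genes with other symbols, BIRC6 had 18 at 50.4% ± 1.2 and CDC34, the paralog of UBE2R2, 7 at 43.9% ± 0.89. The 8 E1 genes on the list had at most 3 shared sites each, UBA1, the main ubiquitin E1, having 3 at 19.03% ± 1.8.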

How the data were processed

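GLORI site lists of 2 libraries were analysed as deposited. Per the file headers, the authors' lists give for each site the count of A and G reads and the count of A reads, their ratio as a fraction, a conversion fraction and a coverage signal of the gene, and for the site a p-value, raw and adjusted. STAR, Bowtie, SAMtools, Trim Galore 0.6.6 and the build GRCh38 are named by the submitters' processing notes, without roles. The site caller, and how gene coverage was defined, are not stated there or in the labels. The deposited fraction equalled A over A plus G within 5e-06.

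Sites were joined by chromosome, position and strand, and each gene took the name in the lists. Listed depth per site had a median of 40 reads in replicate 1 and 42 in replicate 2. Authors' values other than counts, coverage and conversion were not used. Conversion of member genes, as the authors list it, was 94.1% to 98.9%. Fisher's exact test and the chi-square test were adjusted by Benjamini-Hochberg at 0.05, after both were tested on simulated data (Python 3.11.15, scipy 1.17.1). Intervals are Wilson's at 95%. Gene coverage was compared as its mean log over the libraries. Roles, gene positions and start sequences came from RefSeq's GRCh38.p14 tables. No genome was used here, so the planned shares by transcript region and by motif were replaced by the position in the annotated gene and by motifs in the start windows.

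Named genes are the 10 members with the most shared sites, the 5 highest and 5 lowest by level with at least 2 sites, the 3 most covered sites, those listed in a single library, paralog families, symbols that are not proteasome or E2 proteins and the extreme sites with at least 50 reads; others are given by role. The members and lists were chosen with earlier results of these data known. Alternatives were each library alone, minimums of 30 and 50 reads, a level of at least 20%, protein-coding genes only, summed reads, 50 or 300 neighbours and, added after seeing the data, no sites in the first 50 nt. A few named genes are not reported here.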

Additional observations from a re-analysis of the deposited data

How the results depend on the processing

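Of the recomputed values, 65 stayed within their error or, for counts, within 1.5 times, and 13 moved further. The median number of shared sites in proteasome genes was 1 with a level of at least 20%, against 2. The median level of proteasome genes, 25.03% as reported, was 24.9% to 25.7% over all sites of a single library, 24.4% at a minimum of 30 reads, 26.7% at 50 reads, 34.7% with a level of at least 20%, 25.6% over protein-coding genes, 24.2% from summed reads and 27.3% without sites in the first 50 nt of the gene. That of E2 genes, 42.7% as reported, was 37.7% to 40.7% over all sites of a single library, 39.8% at 50 reads, 55.5% with a level of at least 20% and 50.2% without sites in the first 50 nt. Over the shared sites, the proteasome median was 29.5% in replicate 1 and 25.6% in replicate 2, and the E2 median 45.5% and 43.95%. The raised level minimum removes weak sites by construction; the cause of the other shifts was not tested. In each of these settings the proteasome median stayed below the E2 median. The share of E2 genes above their neighbours in number of sites was 38.1% at 50 reads, against 17.2%, and that of proteasome genes 33.3%, against 20.8%. The share of proteasome genes above their neighbours in level ran from 24.1% to 38.9% over 9 alternatives. Calls of the chi-square test of sites within a gene ran from 21 to 27 members, the lowest at 50 reads, where 24 members could be tested. No paired analysis was possible because there is 1 group. Sites per kb of transcript and shares by transcript region were not run, since no transcript lengths or genome were used here. With 5 A reads required, the lowest level that can be listed depends on the depth of the site, which was 19 to 24 reads at the shared sites of UBE2D4, UBE2L4 and UBE2L5.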

Other observations

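Names ending in P and a number were left out of the members, and 6 of them had shared sites. PSME3IP1, a protein-coding gene whose name ends this way by chance, had 1 at 63.6%. The pseudogenes UBE2CP5, UBE2HP1 and UBE2SP2 had 4, 2 and 1, at 28.5%, 34.6% and 17.7%. UBE2V1P10 and UBE2V1P11 had 1 each, at 94.2% and 81.9%, while UBE2V1 itself was not listed.

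PSMD3 had 82.4% of 17 reads at its first base in replicate 1 and no entry there in replicate 2, and PSME4 had 76.5% of 17 reads at 26 bases from its start in replicate 2 only. PSMD8 had 3 sites of a single library, at 11.8% to 19.8%, after its shared site.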
